A study of Mus musculus with 4 samples.

Results

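The desmosomal cadherins and E-cadherin are the adhesion molecules that span the membrane at the desmosomes and adherens junctions of epithelial cells. They were followed here on 4 microarrays of mouse colon. The members were the 6 desmogleins Dsg1a, Dsg1b, Dsg1c, Dsg2, Dsg3 and Dsg4, the 3 desmocollins Dsc1, Dsc2 and Dsc3, and Cdh1, the gene of E-cadherin. They were chosen by name, as every probe whose gene name in the array files is one of these symbols. That gave 10 of the 30210 gene names on the array, with 16 probes and 25 spots per array, and none of these spots was flagged as an outlier.

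Each array was hybridized with RNA pooled from the colons of 1 group of male mice of 42 weeks on a B6.129 background (n3), and the sources differ on the pool size, since the design text gives 3 to 5 mice and the study's description of the arrays a single number within that range. The 4 groups were Pla2g3+/+ and Pla2g3-/- mice given saline as vehicle, and Pla2g3+/+ and Pla2g3-/- mice given azoxymethane (AOM), which is used to induce tumors of the mouse colon. It was injected intraperitoneally at 10 mg/kg, weekly over 6 weeks, and colons were taken 28 weeks after the final dose. Pla2g3 encodes a secreted phospholipase A2, and its deletion was present in every tissue of the Pla2g3-/- mice, which were compared with littermates. The labels describe the AOM tissue as colorectal cancer and the methods as descending colon, so a pool can hold tumor and surrounding wall in unknown proportions. The 4 comparisons ask how the genotype (KO/WT) relates to expression with vehicle and after AOM, and how AOM (AOM/vehicle) relates to it in each genotype. Each group is a single array without replicates, so no test was run and every ratio describes these pools.

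Classical cadherins such as E-cadherin bind their like on the neighboring cell and are tied to actin through catenins, whereas desmogleins and desmocollins are tied to keratin filaments through plakoglobin, plakophilins and desmoplakin. Simple epithelia such as the colonic lining are known to build their desmosomes from Dsg2 and Dsc2. The other desmosomal cadherins are known mainly from stratified squamous epithelium and, for Dsg4, from the hair follicle. Loss of E-cadherin is a known feature of many invasive carcinomas.

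Signals are the background-subtracted intensities of the scanner software. For ratios, each signal was divided by the 75th percentile of the probes on its array, which was 609 for both vehicle arrays, 1231 for the Pla2g3+/+ AOM array and 1092 for the Pla2g3-/- AOM array. Since the AOM arrays were the brighter ones, a ratio of AOM to vehicle depends on this scaling. Without it, the median log2 ratio of all probes moved from -0.18 to 0.86 in Pla2g3+/+ and from -0.067 to 0.76 in Pla2g3-/-, and changes are reported relative to the scaled arrays. A signal that the software did not call well above background has no level of its own. Where 1 of the 2 arrays compared was of that kind, the ratio is a bound, taken against the lowest signal well above background on that array (10.7 to 17.1 over the 4 arrays) or against the dim signal itself where that was higher, and it is written as at least N-fold. Where neither array was well above background, no ratio is given.

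As facts of the whole series, 64.8 to 69.4% of 43020 spots were well above background on each array, none was saturated, and the median SD of repeated spots of a probe was 0.066 to 0.079 on the log2 scale. Pla2g3 went against the genotype labels. Its brightest probe read 343 and 426 in the Pla2g3+/+ and Pla2g3-/- vehicle arrays and 304 and 1632 in the respective AOM arrays, and its other 2 probes were also higher in the arrays labeled Pla2g3-/-. Whether these probes lie in the deleted part of the gene is not given in the sources used here, so groups are named as labeled and each direction between genotypes rests on the labels. Markers of simple gut epithelium were well above background for 14 of 14 genes on every array, as were 8 of 8 colonocyte genes. The Pla2g3+/+ AOM array stood apart from the other 3. Its summed scaled signal of 10 smooth muscle genes was 45.2, against 695 to 754 on the others, and that of 12 Wnt targets known from colon tumors was 66.5, against 11.3 to 12.8.

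Of the 16 member probes, 6 and 7 were well above background in the Pla2g3+/+ and Pla2g3-/- vehicle arrays, and 9 in each AOM array. In genes, this was 5 of 10 in the Pla2g3+/+ vehicle array and 6 of 10 in each of the others. Only 5 probes of 4 genes, Cdh1, Dsg2 (2 of its 3 probes), Dsc2 and Dsg1c, were well above background on all 4 arrays. In contrast, 4 probes were dim on every array, including the only probes of Dsg1b and Dsc1. The plot of signals by probe shows the simple-epithelium genes, except for probe 3 of Dsg2, far to the right of the dim range. Most of the other probes lie within or below it on at least some arrays.

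**Figure D1:**
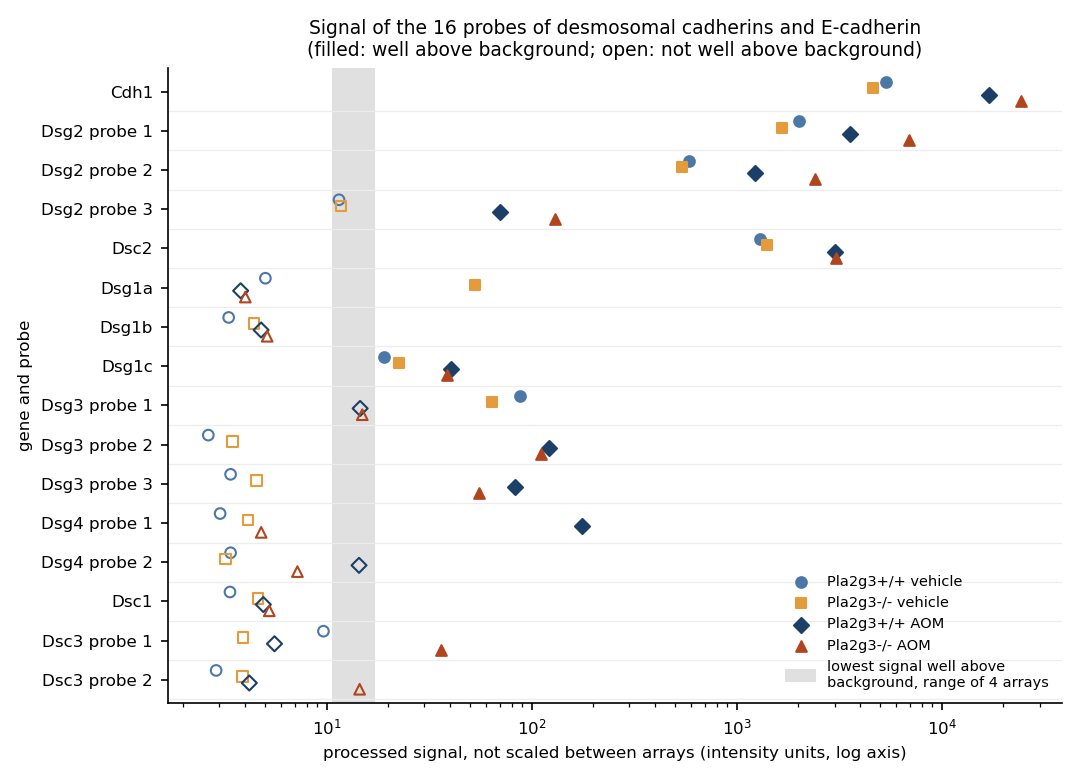
Processed signal (x axis, intensity units on a log axis, before scaling between arrays) of each of the 16 member probes (y axis) on the 4 arrays, 1 symbol per array, filled where the scanner software called the signal well above background and open where it did not. The gray band is the range over the arrays of the lowest signal well above background. Cdh1, Dsc2 and probes 1 and 2 of Dsg2 lie above 500 on every array, whereas Dsg1a, Dsg4 and Dsc3 have a single filled symbol each.

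The 9 desmosomal cadherin genes form a cluster on mouse chromosome 18, and Cdh1 lies on chromosome 8. In the mm9 coordinates of the array files, the 15 desmosomal probes span 639.2 kb, chr18:20122029-20761236. In ascending coordinates the order is Dsc3, Dsc2, Dsc1, Dsg1c, Dsg1a, Dsg1b, Dsg4, Dsg3 and Dsg2. The desmocollin probes are listed in descending coordinates and the desmoglein probes in ascending ones. Thus Dsg2 and Dsc2 are not neighbors, since Dsg2 lies at one end of the cluster (chr18:20761177-20761236 for probe 1) and Dsc2 near the other (chr18:20189299-20189358). No annotation of mm9 was used here, so the exon or UTR that a probe lies in is not stated.

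E-cadherin was the member with a measured technical error, since its probe (NM_009864, chr8:109193812-109193871) is printed at 10 spots per array. Cdh1 signal was highest in the pool labeled Pla2g3-/- AOM. The mean over spots was 5381 ± 323 (SD, n = 10 spots) in the Pla2g3+/+ vehicle array and 4629 ± 327 in the Pla2g3-/- vehicle array. After AOM it was 16958 ± 768 in Pla2g3+/+ and 24484 ± 1383 in Pla2g3-/-. Relative to the 75th percentile, these were 8.83, 7.60, 13.8 and 22.4, so that the order from low to high was Pla2g3-/- vehicle, Pla2g3+/+ vehicle, Pla2g3+/+ AOM and Pla2g3-/- AOM. The spots of the first 2 overlapped, from 6.98 to 8.51 and from 7.78 to 9.66, and no other neighbors in this order did. These spots share 1 pool and 1 labeling reaction per array, and their spread says nothing about the spread between mice.

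**Figure D2:**
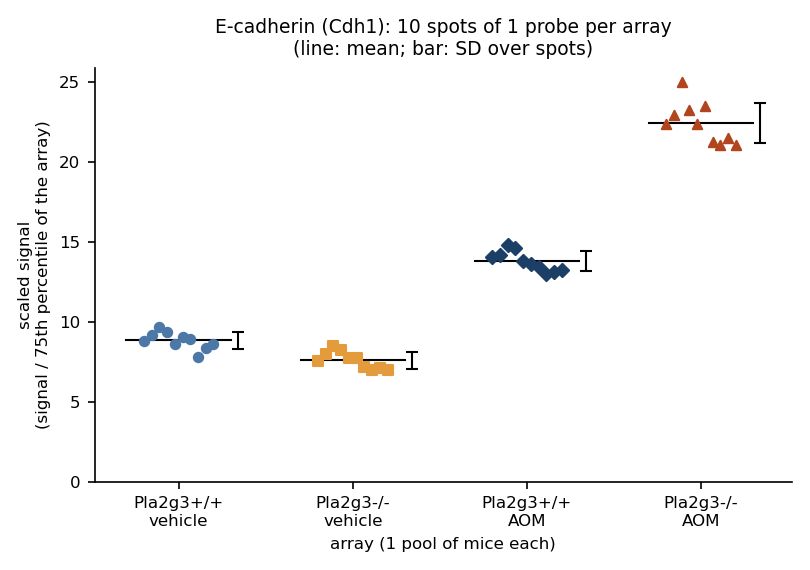
Scaled Cdh1 signal (y axis, signal over the 75th percentile of the array) at each of the 10 spots of the Cdh1 probe on the 4 arrays (x axis, 1 pool of mice each), with the mean as a line and the SD over spots as a bar. The spots run from 21.1 to 24.97 in the Pla2g3-/- AOM array and from 13.0 to 14.8 in the Pla2g3+/+ AOM array, and the vehicle arrays overlap below 10.

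The KO/WT ratio of Cdh1 was 0.860 with vehicle, a log2 ratio of -0.22 ± 0.042 (SE over spots), and at each of the 10 spot positions the Pla2g3-/- array was the lower one, with ratios from 0.807 to 0.899. After AOM the KO/WT ratio was 1.63, a log2 ratio of 0.70 ± 0.033, with spot ratios from 1.59 to 1.73. Neither passed 2-fold. The AOM/vehicle ratio was 1.56 in Pla2g3+/+ (log2 0.64 ± 0.035) and 2.95 in Pla2g3-/- (log2 1.56 ± 0.041), and the latter passed 2-fold. Of all probes with a ratio, 3.92% had one as high or higher in the last comparison, and 22.9% in AOM/vehicle of Pla2g3+/+. The value in Pla2g3+/+ depended on the scaling. Its log2 ratio was 1.16 with quantile normalization and 1.66 with no scaling, both past 2-fold.

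Dsg2, the desmoglein of simple epithelia, had the KO/WT ratios that differed most between treatments among the 4 genes with a ratio in both. Probe 1 (NM_007883, near the end of the transcript, from base 3878) read 2024 in Pla2g3+/+ and 1663 in Pla2g3-/- with vehicle, and 3584 and 6931 after AOM. Probe 2 (the same transcript, from base 487, chr18:20737628-20737687) read 585, 539, 1234 and 2405 in the same order. Both probes were thus highest in the Pla2g3-/- AOM array, although they start far apart in the transcript. The KO/WT ratio with vehicle was 0.822 for probe 1 and 0.921 for probe 2. After AOM it was 2.18 and 2.20, past 2-fold for both.

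Probe 3 of Dsg2 was designed on a cDNA clone (BC044848, chr18:20743861-20743920), between the other 2 probes in the genome. It was not well above background with vehicle, at 11.51 and 11.77, and read 69.9 in Pla2g3+/+ and 130 in Pla2g3-/- after AOM. Its KO/WT ratio after AOM was 2.10, close to those of the other probes, and 0.51 on the log2 scale with normexp and quantile normalization. The 3 ratios after AOM lay just past the threshold, at log2 1.07 to 1.14, and without scaling between arrays they were 0.95 for probe 1, 0.96 for probe 2 and 0.90 for probe 3, within 2-fold.

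The AOM/vehicle ratio of Dsg2 in Pla2g3+/+ was 0.877 by probe 1 and 1.04 by probe 2. The sign of probe 1 turned with quantile normalization, with or without normexp, and with no scaling, which put probe 2 past 2-fold at log2 1.08. By probe 3 it was at least 3.01-fold higher, so the probes disagreed there. In Pla2g3-/- the ratio was 2.33 by probe 1 and 2.49 by probe 2, and at least 4.92-fold by probe 3. The 3 probes agreed in passing 2-fold in Pla2g3-/-. With normexp and quantile normalization, probe 3 was within 2-fold in both genotypes, with log2 ratios of 0.43 and 0.96.

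Dsc2, the desmocollin that pairs with Dsg2 in simple epithelia, differed less between arrays. Its probe (NM_013505) read 1305 and 1409 with vehicle in Pla2g3+/+ and Pla2g3-/-, and 3009 and 3051 after AOM. Between genotypes, KO/WT was 1.08 with vehicle and 1.14 after AOM, and the AOM/vehicle ratio was 1.14 in Pla2g3+/+ and 1.21 in Pla2g3-/-. All 4 were within 2-fold, and without scaling those of AOM to vehicle were past it, at log2 1.20 and 1.11. Feature Extraction gave each of these signals, and those of Dsg2 probes 1 and 2, an error of 10.0% of the signal, a model value of the software and not a spread between pools.

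These 3 genes were set beside the markers of simple gut epithelium on the same arrays, since the share of epithelium in a pool can differ. In a bulk sample, fewer cells of a type and less RNA per cell cannot be told apart. Epcam, an adhesion molecule of epithelial cells, had a KO/WT ratio of 0.908 with vehicle and 1.41 after AOM. The 14 simple-epithelium genes had a median KO/WT log2 ratio of 0.11 with vehicle and 0.68 after AOM, with 3 of 14 more than 2-fold higher after AOM and none lower. Cdx1, a transcription factor of intestinal identity, was 4.30-fold higher and Krt20, a keratin of differentiated surface cells, 3.69-fold higher. Krt18, a keratin of simple epithelia, was 1.30-fold lower. After AOM, Cdh1 exceeded the median of this list by 0.020 on the log2 scale and Dsg2 by 0.44 and 0.45 (probes 1 and 2), while Dsc2 was 0.49 below it, a difference of -0.49.

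AOM/vehicle in Pla2g3-/- gave a different relation. The median log2 ratio of the 14 markers was 0.014 there, with 1 higher and 2 lower, and that of Epcam was a ratio of 1.07, whereas Cdh1 exceeded the list median by 1.55 and Dsg2 by 1.20 and 1.30. Smooth muscle genes had a median of -0.084 in the same comparison, with 1 of 10 higher and none lower. The medians of both lists depended on the scaling, at 0.86 and 0.76 with no scaling and 0.46 and 0.65 with quantile normalization. In AOM/vehicle of Pla2g3+/+ the simple-epithelium median was -0.53, with 5 of 14 lower and none higher, and it was 0.48 with no scaling and 0.02 with quantile normalization. On the scaled arrays Cdh1 exceeded the list median in Pla2g3+/+ too, by 1.17, Dsg2 by 0.34 and 0.59 (probes 1 and 2) and Dsc2 by 0.72. All 10 smooth muscle genes were lower there, with a median of -4.34, and all 10 were higher in KO/WT after AOM, with a median of 4.16, led by Des (103-fold) and Myh11 (88.3-fold). The Pla2g3-/- arrays, whose smooth muscle sums were 754 with vehicle and 695 after AOM, differed in other tissue markers. In AOM/vehicle of Pla2g3-/-, the squamous keratins Krt5, Krt14 and Krt15 were 298-fold, 36.5-fold and 80.2-fold higher. Ltf, a granule protein of neutrophils, was 308-fold higher. These were the largest rises of their lists. Past 2-fold, 6 of 16 squamous genes with a ratio were higher and 1, Sprr1a, was 2.31-fold lower. Of the neutrophil genes, 4 of 9 were higher and 1, Retnlg, was 10.5-fold lower. Among all genes, 10.4% were higher and 16.5% lower. Krt14 and Krt15 were also higher in AOM/vehicle of Pla2g3+/+, at 13.9-fold and 113-fold. The part of these marker differences in the ratios of Cdh1 and Dsg2 was not tested.

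**Figure D3:**
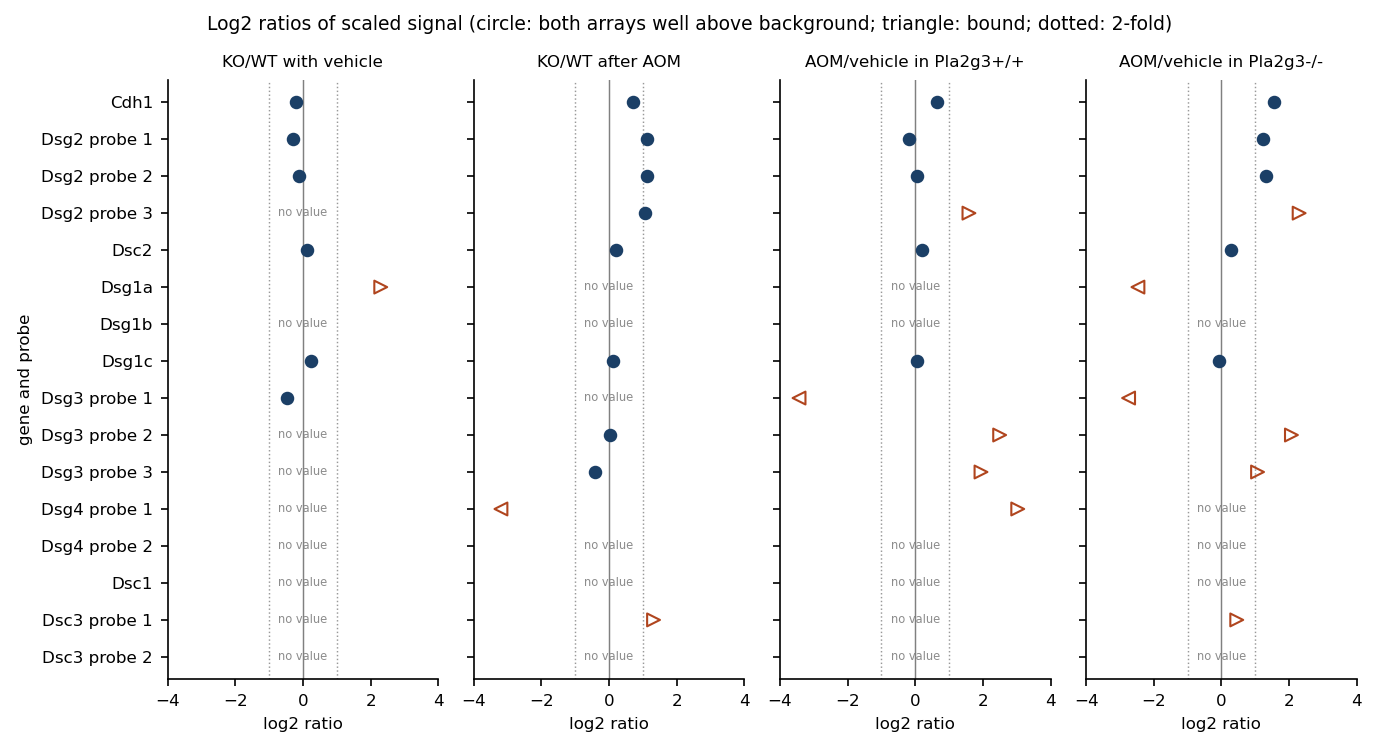
Log2 ratios of scaled signal (x axis) for each member probe (y axis) in the 4 comparisons, 1 panel each. Circles are ratios between arrays that were both well above background, open triangles are bounds that point in the direction of the change, "no value" marks probes dim on both arrays, and dotted lines mark 2-fold. With vehicle every circle lies within 2-fold, and the 3 Dsg2 probes lie at 1.07 to 1.14 after AOM.

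The Dsg1 genes, which mouse carries as 3 copies of the desmoglein of upper epidermal layers, were near or below background. Dsg1a (NM_010079, chr18:20501268-20501327) was well above background on 1 array. It read 52.8 in the Pla2g3-/- vehicle array and 5.03, 3.81 and 4.02 in the Pla2g3+/+ vehicle, Pla2g3+/+ AOM and Pla2g3-/- AOM arrays. It was thus at least 4.93-fold higher in KO/WT with vehicle and at least 5.53-fold lower in AOM/vehicle of Pla2g3-/-, both from a single spot. Under normexp background correction with quantile normalization both were within 2-fold, with log2 ratios of 0.85 and -0.81. Dsg1b read 3.33 to 5.14 and was dim throughout. Dsg1c read 19.1 and 22.5 with vehicle and 40.3 and 38.7 after AOM, and its ratios in the 4 comparisons were 1.18, 1.08, 1.04 and 0.961. With no scaling, AOM/vehicle in Pla2g3+/+ was past 2-fold, at log2 1.08. The array files list an accession of Dsg1b beside that of Dsg1c for this probe, so the signal of these closely related genes could not be assigned to one of them.

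Dsg3, the desmoglein of basal layers and of mucosal squamous epithelium, gave opposite directions by probe. Probes 2 and 3 (both NM_030596, chr18:20699734-20699793 and chr18:20698528-20698587) were dim with vehicle, at 2.65 to 4.56. After AOM probe 2 read 122 in Pla2g3+/+ and 111 in Pla2g3-/-, and probe 3 read 83.3 and 55.6. Both were higher after AOM in each genotype. Probe 2 was at least 5.64-fold higher in Pla2g3+/+ and at least 4.20-fold higher in Pla2g3-/-. For probe 3 the bounds were 3.85-fold and 2.10-fold. Between genotypes after AOM the 2 probes differed little, with KO/WT ratios of 1.03 and 0.753. Under normexp and quantile normalization the AOM/vehicle log2 ratios were 0.92 and 0.50 in Pla2g3+/+ and 1.05 and 0.51 in Pla2g3-/- for probes 2 and 3.

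Probe 1 of Dsg3 moved the other way. It was designed on a skin cDNA clone (AK029018) and starts 4037 bases from probe 2, at chr18:20703771-20703830. It read 88.2 and 63.9 with vehicle in Pla2g3+/+ and Pla2g3-/-, with a KO/WT ratio of 0.725, and was not well above background after AOM, at 14.6 and 14.9. It was thus at least 10.8-fold lower after AOM in Pla2g3+/+ and at least 6.70-fold lower in Pla2g3-/-, where the log2 ratio was -0.80 under normexp and quantile normalization. No single direction can be given for Dsg3, and when genes are represented by the probe that is brightest over the 4 arrays, as in the gene counts below, the choice of probe sets its sign.

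Dsg4, the desmoglein of the hair shaft, was well above background on the Pla2g3+/+ AOM array alone. Probe 1 (NM_181564, chr18:20630260-20630319) read 177 there, against 3.03 and 4.14 with vehicle and 4.80 in the Pla2g3-/- AOM array. It was at least 8.17-fold higher in AOM/vehicle of Pla2g3+/+ and at least 9.18-fold lower in KO/WT after AOM. Probe 2 (AY170623) was dim on every array, and its highest signal, 14.4, was also in the Pla2g3+/+ AOM array. Under normexp and quantile normalization, probe 1 had a log2 ratio of -0.99 in KO/WT after AOM, within 2-fold.

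Of 15 hair-follicle genes, few followed the pattern of Dsg4. In AOM/vehicle of Pla2g3+/+, 3 of the 8 with a ratio were higher and 3 lower, with a median of 0.24, and with no scaling 5 were higher and 1 lower, with a median of 1.26. Their summed scaled signal was 0.572 and 0.484 in the vehicle arrays, 3.96 in the Pla2g3+/+ AOM array and 0.548 in the Pla2g3-/- AOM array, and Lef1 (2.59) and Krt35 (1.01) made up most of the 3.96. Krt35, a hair keratin, read 1245 in the Pla2g3+/+ AOM array and 29.4 in the Pla2g3-/- AOM array, and Lef1, a Wnt effector that hair matrix cells and colon tumors both express, read 3185 and 156. Krt34, also a hair keratin, had the pattern of Dsg4. It was well above background on the Pla2g3+/+ AOM array alone, at 135. It read 7.47 and 5.48 with vehicle and 3.82 in the Pla2g3-/- AOM array, and was at least 6.98-fold lower in KO/WT after AOM. Krt25, Krt27, Krt28, Krt71, Krt33a, Krt33b, Krtap6-2 and Hoxc13 were not well above background on either AOM array. In KO/WT after AOM, 1 of the 7 genes with a ratio was higher (Krtap3-1, at least 6.92-fold) and 3 were lower, with a median of -0.44. Krt31, another hair keratin, had a KO/WT ratio of 1.41. Their part in the Dsg4 signal was not tested.

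The desmocollins of stratified epithelium were dim. Dsc1 read 3.38 to 5.26 and had no ratio. Dsc3 was well above background in the Pla2g3-/- AOM array alone, where probe 1 (NM_007882, chr18:20124142-20124201) read 36.3, against 9.66 and 3.91 with vehicle and 5.58 in the Pla2g3+/+ AOM array. It was at least 2.49-fold higher in KO/WT after AOM and at least 1.37-fold higher in AOM/vehicle of Pla2g3-/-. Probe 2 of Dsc3 reads the adjoining bases of the same transcript and was dim on all arrays, with its highest signal, 14.5, in the same Pla2g3-/- AOM array. Under normexp and quantile normalization the KO/WT log2 ratio of probe 1 was 0.17.

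Some markers of stratified squamous epithelium were higher on the AOM arrays. In AOM/vehicle, 6 of the 16 genes with a ratio were higher and 2 lower in Pla2g3+/+, with a median of 0.27, and 6 of 16 were higher and 1 lower in Pla2g3-/-, with a median of 0.63. With no scaling, 9 and 13 were higher and none lower. The summed scaled signal of all 21 genes on the list was 12.2 and 11.7 with vehicle, 30.3 in Pla2g3+/+ AOM and 35.7 in Pla2g3-/- AOM, and a few genes carried it. Ly6d made up 12.6 and Krt15 5.81 of the sum in Pla2g3+/+ AOM, and Krt5 made up 16.4 of that in Pla2g3-/- AOM. Krt10, a keratin of upper epidermal layers, was 3.41-fold lower in AOM/vehicle of Pla2g3+/+. Single genes differed between the AOM arrays in both directions. Krt5, the keratin of basal cells, read 34.8 in Pla2g3+/+ and 17850 in Pla2g3-/-, and its usual partner Krt14 read 2035 and 2913. Krt4, a keratin of mucosal squamous epithelium, was at least 7.28-fold lower in KO/WT after AOM and Ly6d 3.91-fold lower, whereas Krtdap was at least 3.62-fold higher. Of 17 genes with a ratio in KO/WT after AOM, 2 were higher and 3 lower, with a median of 0.32, and Krt1, Ivl, Sprr3 and Sprr1b were not well above background on any array. The part of squamous tissue in the signals of Dsg3, Dsc3, Cdh1 and Dsg2 was not tested.

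Counted over probes, 1 of the 7 member probes with a ratio was past 2-fold in KO/WT with vehicle, the higher Dsg1a, and none was lower. Among all 26536 probes with a ratio the shares were 2.14% higher and 1.51% lower. In KO/WT after AOM, 4 of 10 were higher (the 3 probes of Dsg2 and 1 of Dsc3) and 1 lower (Dsg4), against 14.2% and 12.0% of all probes. In AOM/vehicle of Pla2g3+/+, 4 of 10 were higher and 1 lower, against 15.0% and 21.6%. In AOM/vehicle of Pla2g3-/-, 6 of 11 were higher and 2 lower, against 11.3% and 15.4%. The median log2 ratios of the member probes in these 4 comparisons were -0.12, 0.45, 0.42 and 1.07, and those of all probes were -0.029, 0.038, -0.18 and -0.067. Probes of 1 gene share their target, so the 3 of Dsg2 are not separate observations. The comparisons also share arrays, and AOM/vehicle in Pla2g3-/- and KO/WT after AOM both contain the Pla2g3-/- AOM array.

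The proteins that anchor these cadherins were examined as fixed lists, with each gene represented by its brightest probe. For genes on the whole array, the shares past 2-fold were 2.25% higher and 1.53% lower in KO/WT with vehicle, 14.5% and 12.6% in KO/WT after AOM, 14.8% and 22.8% in AOM/vehicle of Pla2g3+/+, and 10.4% and 16.5% in AOM/vehicle of Pla2g3-/-. Of 10 desmosomal plaque and associated genes, none passed 2-fold with vehicle, while 3 were higher and none lower in KO/WT after AOM, with a median of 0.27. In AOM/vehicle of Pla2g3-/-, 6 of 10 were higher and none lower, with a median of 1.28, and in Pla2g3+/+ 3 were higher and 1 lower, with a median of 0.38. With no scaling these were 9 higher (median 2.12) in Pla2g3-/- and 6 higher and none lower (median 1.399) in Pla2g3+/+, and with normexp and quantile normalization 4 were higher in each.

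Dsp encodes desmoplakin, which links the desmosome to keratin. It read 2086 and 2125 with vehicle in Pla2g3+/+ and Pla2g3-/-, and 12225 and 18587 after AOM. Its KO/WT ratio after AOM was 1.71, and its AOM/vehicle ratio was 2.90 in Pla2g3+/+ and 4.88 in Pla2g3-/-. Jup, the gene of plakoglobin, which serves both junctions, read 52.8, 42.3, 143 and 173, with ratios of 1.36 in KO/WT after AOM and 2.28 in AOM/vehicle of Pla2g3-/-. The largest rises in KO/WT after AOM were those of Cdsn (4.18-fold), a component of cornified desmosomes, and Evpl (3.13-fold), the plakin envoplakin. The largest falls were those of Ppl, the plakin periplakin, and of Pkp2, a plakophilin, at 1.42-fold and 1.19-fold lower, both within 2-fold.

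**Figure D4:**
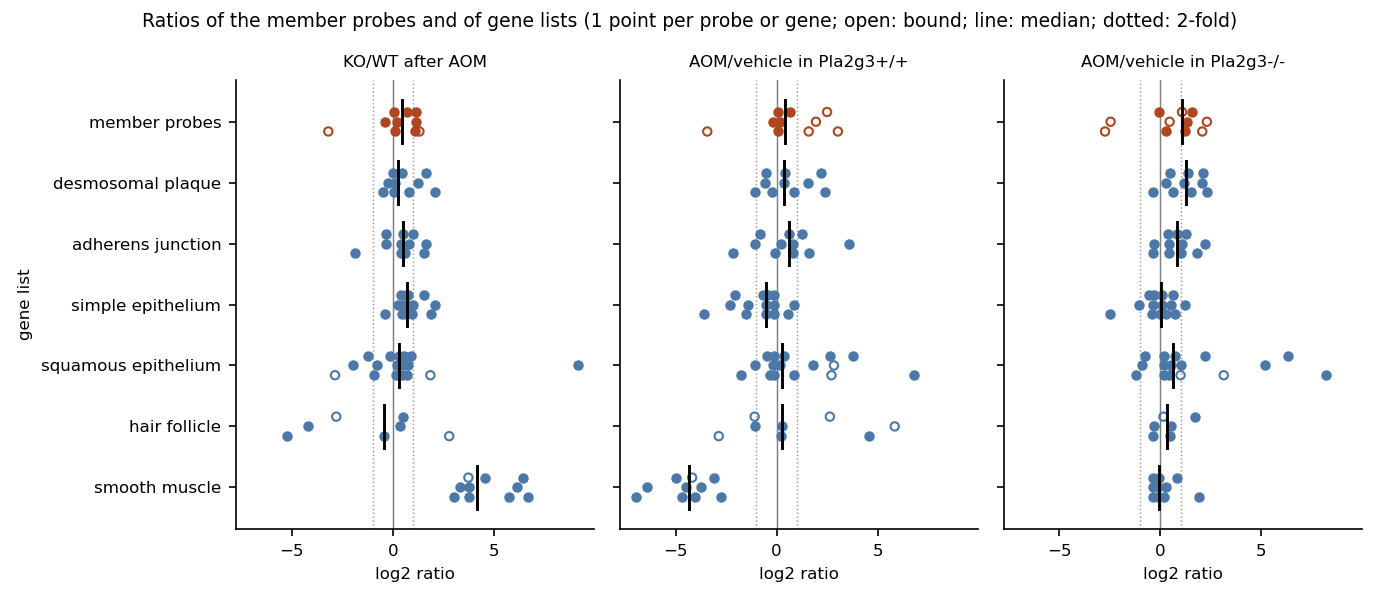
Log2 ratios (x axis) of the member probes with a ratio and of the genes of 6 fixed lists (y axis), 1 point per probe or gene, in KO/WT after AOM and in AOM/vehicle of each genotype. Open points are bounds, black lines are medians and dotted lines mark 2-fold. The member median is 0.45, 0.42 and 1.07 in the 3 panels, the desmosomal plaque median 0.27, 0.38 and 1.28, and the smooth muscle median 4.16 and -4.34 in the first 2.

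Of 12 catenins and partners of the adherens junction, 11 had a ratio. None passed 2-fold with vehicle, and 2 were higher and 1 lower in KO/WT after AOM, with a median of 0.51. Ctnnb1, the gene of beta-catenin, which binds E-cadherin and acts in Wnt signaling, had a KO/WT ratio of 0.905 with vehicle and 0.785 after AOM. The largest rises were those of Ctnna2, an alpha-catenin known from neurons (3.15-fold), and of Pvrl1, a nectin (2.94-fold). The nectins Pvrl4 and Pvrl2 were 3.63-fold and 1.28-fold lower. In AOM/vehicle, 3 were higher and 2 lower in Pla2g3+/+, with a median of 0.59, and 5 were higher and none lower in Pla2g3-/-, with a median of 0.81. With no scaling, 7 were higher and 1 lower in Pla2g3+/+ (median 1.61) and 9 higher in Pla2g3-/- (median 1.66), and with quantile normalization 6 were higher in Pla2g3+/+.

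Transcription factors that repress Cdh1 were well above background on all arrays for 6 of 6 genes. Snai1 read 57.4 and 79.7 with vehicle, 549 in the Pla2g3+/+ AOM array and 107 in the Pla2g3-/- AOM array. It was 4.57-fold lower in KO/WT after AOM. Snai2 was 1.82-fold lower, whereas Zeb1 was 1.92-fold and Twist2 1.51-fold higher. Past 2-fold, 1 of 6 was lower and none higher, with a median of 0.33, so the list as a whole had no single direction. In AOM/vehicle, 2 of 6 were higher in Pla2g3+/+ and 3 in Pla2g3-/-, with medians of 0.59 and 0.74 and none lower. With no scaling 5 of 6 were higher in each genotype, and with normexp and quantile normalization 2 were higher in Pla2g3+/+ and 0 in Pla2g3-/-.

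Of 14 other cadherins, 13 had a ratio in KO/WT after AOM, and 6 were higher and 3 lower, with a median of 0.91. The rises were led by Cdhr1, at 11.8-fold, and by Cdhr5, a protocadherin of the brush border, at 5.34-fold. The falls were led by Cdh5, the cadherin of endothelium (3.21-fold lower), and Cdh13 (2.84-fold lower). None passed 2-fold with vehicle. In AOM/vehicle, 3 of 12 were higher and 5 lower in Pla2g3+/+, with a median of -0.65, and 4 were higher and 1 lower in Pla2g3-/-, with a median of 0.40. The direction in Pla2g3+/+ turned with no scaling, to 5 higher and 3 lower with a median of 0.37, and in Pla2g3-/- 7 of 13 were then higher. With normexp and quantile normalization, 0 of 13 were higher in Pla2g3-/- and 3 of 13 in KO/WT after AOM.

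Among 9 proteases that shed or process cadherins, 1 of the 6 with a ratio was higher in KO/WT after AOM (Adam15, 2.52-fold) and 2 were lower. Mmp7, matrilysin, which can release the ectodomain of E-cadherin, read 314 and 374 with vehicle, 22717 in the Pla2g3+/+ AOM array and 13.7, dim, in the Pla2g3-/- AOM array, where it was at least 1178-fold lower. Mmp3 was 18.1-fold lower. Adam10, the main sheddase of E-cadherin, had a KO/WT ratio of 0.653. In AOM/vehicle, 4 of 7 were higher and 1 lower in Pla2g3+/+, with a median of 1.06, and none was higher and 1 of 6 was lower in Pla2g3-/-, with a median of 0.26. With no scaling, 5 of 6 were higher in Pla2g3+/+ and 3 of 6 in Pla2g3-/-. The kallikreins Klk6 and Klk7, which cut desmosomal proteins in skin, were dim on every array.

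The remaining marker lists showed which other marker signals differed between the arrays from which the ratios come. In KO/WT after AOM, 7 of 8 colonocyte genes were higher and 1 lower, with a median of 3.29. The anion exchanger Slc26a3 was 193-fold and the water channel Aqp8 152-fold higher, and Slc9a3 was 3.42-fold lower. Of the 12 Wnt targets 11 were lower, with a median of -2.22, led by Prox1 (at least 39.3-fold) and Nkd1 (20.2-fold). Of 10 neutrophil genes with a ratio 2 were higher (Ltf, 27.5-fold, and Ly6g, 2.88-fold) and 5 lower, led by S100a9 (91.9-fold) and S100a8 (80.0-fold). The Ly6g probe already read 3273 and 2332 in the Pla2g3+/+ and Pla2g3-/- vehicle arrays, where S100a8 read 33.0 and 39.1. Of 6 genes of Langerhans and dendritic cells 1 was higher (Cd207, at least 2.67-fold) and 4 were lower, led by Itgax (7.70-fold) and Flt3 (at least 4.14-fold), and with normexp and quantile normalization 0 were higher and 1 lower. With vehicle, each of these lists held at most 1 gene past 2-fold. Their part in the members' ratios was not tested.

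Similarity of pattern was measured for the 4 members well above background on all arrays. Each profile of 4 log2 values was centred on its mean, and for the other 18082 genes well above background throughout, the largest difference over the 4 arrays was taken. The closest to Cdh1 were Arfgef2 and Rabgap1l, both at 0.023, and Tmem43 at 0.042. The closest to Dsg2 was Usp54, at 0.010, then an unnamed transcript at 0.036 and Olfr207 at 0.056. For Dsc2 they were Ddx39b (0.0056), Trim2 (0.020) and Taf1a (0.021), and for Dsg1c Slc15a4 (0.018), Nelfa (0.025) and Fzr1 (0.037). With 4 arrays many genes lie close by. Within 0.2 of the profile there were 94 genes for Cdh1, 99 for Dsg2, 852 for Dsg1c and 1053 for Dsc2.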

How the data were processed

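Groups were taken from the sample labels, with 1 array of pooled RNA (27.7 ng labeled with Cy3) per group on 1 slide. The authors deposited the spot intensity of Agilent Feature Extraction 11.5.1.1, background-subtracted and detrended within the array. The deposited value table holds a ratio of this intensity to a constant for each array (645.7 to 1309 over the 4 arrays), and was used as an alternative. Control and outlier spots were left out, log2 intensities of spots of a probe were averaged, and the 75th percentile over the probes was subtracted. A probe was taken as well above background where at least 0.5 of its spots were called so. Ratios were differences of 2 arrays, with 2-fold as the threshold. The ratio script recovered known changes well past 2-fold in bright probes of simulated data. Changes near 2-fold or of signals near background were not simulated. Since the number of arrays limits the precision, no test was run.

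Named genes were all members by every probe, Pla2g3, Jup, Dsp, Ctnnb1, Epcam, and the 2 largest rises and falls in KO/WT after AOM of each list, and for each member bright on all arrays the 3 genes nearest in profile. Other genes, among them Krt14, Adam10 and the markers listed as dim, were added after their values were seen. Members and lists were chosen with earlier results of these data known. Python 3.11.15, pandas 2.3.3, numpy 2.4.6, matplotlib 3.10.9, R 4.3.3 and limma 3.58.1 (normexp and quantile normalization) were used. The alternatives were no scaling, scaling by the median, quantile normalization, normexp (offset 50) with quantile normalization, plain ratios, both arrays well above background only, a floor after scaling, the deposited values, 1.5-fold and 4-fold as thresholds, genes in place of probes, and outlier spots kept.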

Additional observations from a re-analysis of the deposited data

Results flagged for a closer look

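The KO/WT ratios of 3 probes had opposite signs with vehicle and after AOM, lower in the pool labeled Pla2g3-/- with vehicle and higher after AOM. The log2 ratio after AOM minus that with vehicle was 1.41 for probe 1 of Dsg2 (-0.28 with vehicle and 1.12 after AOM), 1.25 for probe 2 of Dsg2 (-0.12 and 1.14) and 0.92 for Cdh1 (-0.22 and 0.70). The same difference was 0.082 for Dsc2 and -0.12 for Dsg1c, whose ratios did not change sign. The change of sign was not particular to these members. Epcam (-0.14 with vehicle and 0.50 after AOM), Elf3 (-0.21 and 0.75), Jup (-0.32 and 0.44) and Perp (-0.12 and 1.26) turned the same way. Other genes of their lists did not, as Krt19 (0.12 and 0.70) and Dsp (0.027 and 0.78) were higher in both and Krt18 (-0.074 and -0.38) lower in both. For probes 1 and 2 of Dsg2 and for Cdh1, 14.6%, 33.9% and 20.5% of all probes had a KO/WT ratio as low or lower with vehicle. After AOM, 12.3%, 12.2% and 20.5% had one as high or higher. With 1 array per group the difference between treatments was not tested. The Pla2g3+/+ AOM array, which enters the second ratio of each pair, is the one whose smooth muscle and colonocyte genes were low, and the part of that in the differences was not tested.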

How the results depend on the processing

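The counts below are of member probes past 2-fold. The share of all probes past 2-fold also moved with the setting, so a count alone is not a result about the members. Where no share is printed beside a count, it shows only how the setting moved that count. No scaling gave 1 higher in KO/WT after AOM, where 11.6% of all probes were higher. It gave 8 higher in AOM/vehicle of Pla2g3+/+, where 44.9% of all probes were higher. Normexp with quantile normalization gave 0 higher with vehicle, 2 higher and 0 lower in KO/WT after AOM, 2 higher in AOM/vehicle of Pla2g3+/+ and 0 lower in that of Pla2g3-/-. Plain ratios gave 1 lower with vehicle and 3 lower in AOM/vehicle of Pla2g3+/+. With both arrays well above background there were 0 higher with vehicle, 0 lower in KO/WT after AOM, 0 higher and 0 lower in AOM/vehicle of Pla2g3+/+, and 3 higher and 0 lower in that of Pla2g3-/-. At 4-fold there were 0 higher in KO/WT after AOM and 2 in each AOM/vehicle comparison. Counted as genes by the brightest probe, there were 2 higher in KO/WT after AOM, 1 in AOM/vehicle of Pla2g3+/+ and 2 in that of Pla2g3-/-. Among all genes, 14.5%, 14.8% and 10.4% were higher in these comparisons. By the mean over probes there were 1 higher in KO/WT after AOM, 2 higher and 0 lower in AOM/vehicle of Pla2g3+/+, and 3 higher and 1 lower in that of Pla2g3-/-. The causes were not tested beyond the construction of each setting. Of 38 ratios, 19 were past 2-fold, 6 of them in every alternative that gave a value, and 13 were within 2-fold in at least 1. Of the other 19, 6 were past 2-fold in at least 1. No called ratio changed sign. Signals close to background limit to bounds the ratios of Dsg1a, Dsg4 and Dsc3, and leave Dsg1b and Dsc1 with none. The ratios of AOM to vehicle of Dsg3 and of probe 3 of Dsg2 are bounds as well. No paired analysis was possible because each group holds 1 array.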

Other observations

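One probe outside the choice by gene name, for a transcript listed as AK052896, is described in the array files as a desmoglein 2 clone. It read 9.61 and 10.4 with vehicle, not well above background, and 88.7 in Pla2g3+/+ and 147 in Pla2g3-/- after AOM. Its KO/WT ratio after AOM was 1.87, within 2-fold, and its AOM/vehicle ratio was at least 4.10-fold in Pla2g3+/+ and at least 5.54-fold in Pla2g3-/-. Like probe 3 of Dsg2, it was dim with vehicle and well above background after AOM.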
